A study of Mus musculus with 10 samples.

Results

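Macrophages from mice labelled as lacking Mertk, a receptor for dying cells, were set directly against macrophages from tumours labelled with a knockdown of Ptdss1, an enzyme that makes the lipid this receptor helps to detect. The comparison takes 7 of the 10 libraries of the study, chosen by their labels alone: the 4 Mertk KO libraries and the 3 Ptdss1 knockdown libraries. Replicate numbers were assigned here in the order of the library titles. These titles are X2, X6, X7 and X8 for Mertk KO and X13, X14 and X17 for Ptdss1 knockdown. The Mertk KO libraries came from mice described as lacking Mertk in macrophages, injected with tumour cells of wild type. The Ptdss1 knockdown libraries came from wild-type mice injected with tumour cells that carried a Ptdss1 knockdown, so the altered gene of that group is one of the tumour cell, whereas the libraries hold macrophage RNA. The other 3 libraries are the control, in which neither the host nor the tumour cell was altered. They entered the gene filter and the estimate of spread behind the SE and p-values of the main test. Their values are given beside some genes, read shares and marker sums, and they enter a count on chromosome 17. All mice were C57BL/6, all tumours grew from PyMT mammary tumour cells placed in 2 mammary glands and were followed for 5 weeks, and the macrophages were sorted from the tumours by flow cytometry. The promoter that drives the Mertk deletion, the exons removed, the agent of the knockdown and the remaining level of Ptdss1 in the tumour cells could not be learned from the labels. The 2 groups differ at once in the host and in the tumour cells, so a difference between them cannot be assigned to either alone. The labels leave it unsaid whether libraries and mice correspond one to one, and every p-value given here measures spread among libraries, part of which may be technical.

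Mertk is a receptor tyrosine kinase of the TAM family, together with Axl and Tyro3. The secreted proteins Gas6 and protein S (gene Pros1) bridge these receptors to phosphatidylserine, a phospholipid that dying cells expose on their outer surface. Ptdss1 and Ptdss2 make phosphatidylserine by exchanging the head groups of other phospholipids. Macrophages that take up dying cells digest them in lysosomes, handle the lipid they carry, and are known to dampen inflammatory signals meanwhile, and in tumours such macrophages are also a source of matrix proteins and growth factors.

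Depth and detection differed between the 7 libraries. Whole reads were recovered from the deposited log2 values and came to between 10292592 and 21321858 per Mertk KO library and between 15927269 and 25815071 per Ptdss1 knockdown library. Mertk KO libraries had 9585 to 11484 genes with at least 10 reads. Ptdss1 knockdown replicates 2 and 3 had 10916 and 11523, whereas replicate 1 had 6995 at a total of 23442827 reads. That replicate fell short of 10 reads for 2191 (25.7%) of the 8519 genes that had them in each of the remaining 6 libraries. The same share was 3.11% for Mertk KO replicate 3, 1.77% for Mertk KO replicate 4 and at most 0.299% for the remaining libraries. All 20 macrophage identity genes had 10 reads in every one of the 7 libraries, and their median difference between groups was 0.12 on the log2 scale, and -0.04 without Ptdss1 knockdown replicate 1. Lyz2, the macrophage lysozyme, was at 17.85, 17.11, 17.92 and 18.42 in Mertk KO and at 17.74, 17.77 and 17.35 in Ptdss1 knockdown, so the defining markers of the labelled cell type were present in every library. A gene had to reach 10 reads in all 7 libraries to enter the descriptions of non-overlapping groups, which left 6328 genes, 54.7% of the 11564 genes tested. This choice leaves out genes that were absent from Ptdss1 knockdown replicate 1. In the first principal component of these 6328 genes, with 64.6% of the variance, that replicate lay at 155.1 and the other 6 libraries between -34.1 and -19.0.

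**Figure D1:**
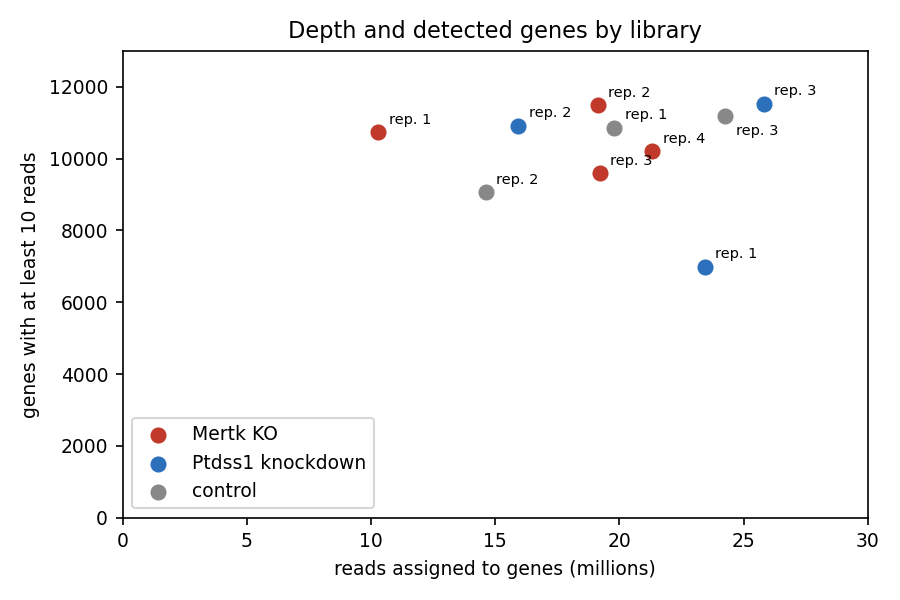
Genes with at least 10 recovered reads (vertical axis) against the total of reads assigned to genes (horizontal axis), 1 point per library, coloured by group. Ptdss1 knockdown replicate 1 sits at 6995 genes, below every other library, although its total is among the highest.

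No gene passed the test between the groups. The test was limma-trend on the log2 values, and with Benjamini-Hochberg adjustment 0 of 11564 genes (0%) were below 0.05; the smallest adjusted p was 0.805. At an unadjusted p below 0.05 there were 431 genes, 252 with higher and 179 with lower values in Mertk KO. The standard error of the log2 difference had a median of 1.28 over all genes tested and 0.675 over genes with 10 reads in all 7 libraries. With limma-voom on the recovered reads 0 genes passed and 412 had an unadjusted p below 0.05. With array weights, which let each library count by how closely it follows its group, 35 genes passed (0.303%), 15 higher and 20 lower. These weights were 0.073 for Ptdss1 knockdown replicate 1 and 4.35 for replicate 3, so the calls rest mainly on 2 of the 3 knockdown libraries. In Mertk KO the weights were 2.49, 3.59, 0.468 and 0.603, so that side rests mainly on replicates 1 and 2.

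A second description asks only whether every Mertk KO library lay above, or below, every Ptdss1 knockdown library. Among the 6328 genes, 144 (2.28%) were higher in all 4 Mertk KO libraries than in any of the 3 knockdown libraries, and 193 (3.05%) were lower. The median log2 difference of the 6328 genes was -0.18, with 3833 negative and 2495 positive, and it was -0.01 without Ptdss1 knockdown replicate 1 and 0.04 with upper-quartile factors. The differences of single genes and lists stand beside these medians, and counts of separated list members beside the shares of 2.28% and 3.05%. The lists share members and were chosen with earlier results of these data known, so such a count is no test. In what follows, all values are log2(normalised reads + 1), replicates are given in numerical order, differences are Mertk KO minus Ptdss1 knockdown, and every adjusted p named without a method is that of limma-trend over all 11564 genes.

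**Figure D2:**
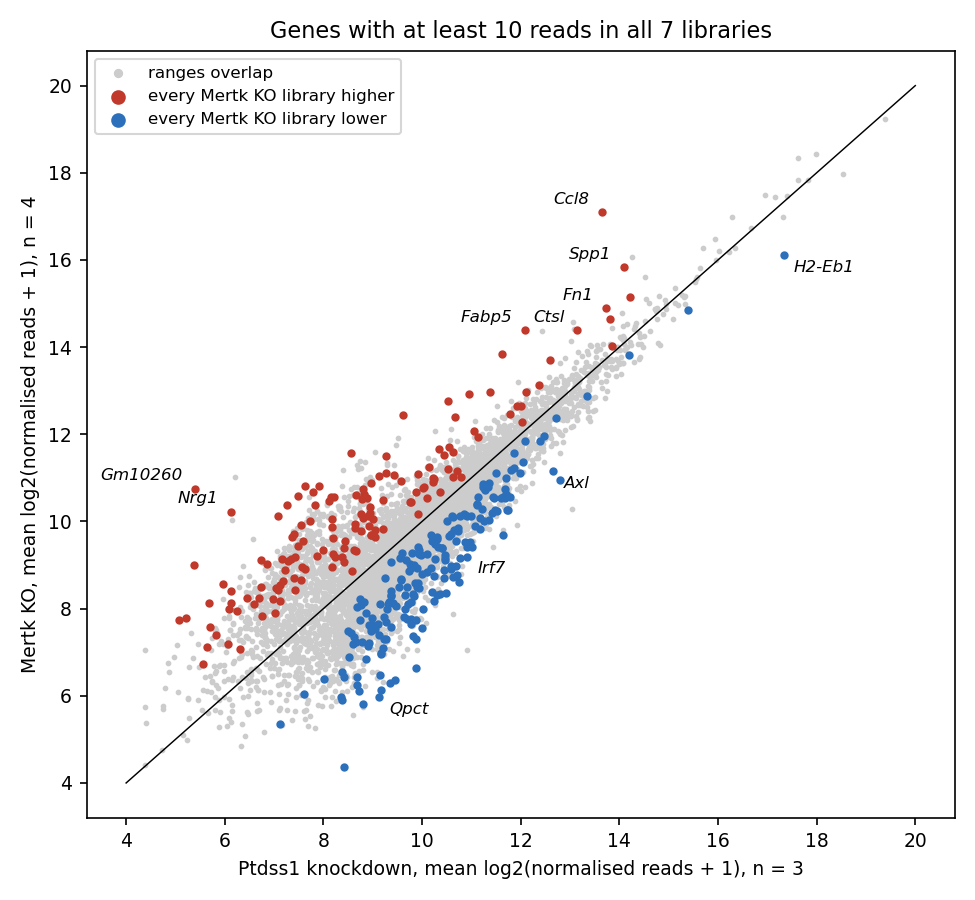
Mean log2(normalised reads + 1) of the 4 Mertk KO libraries (vertical axis) against that of the 3 Ptdss1 knockdown libraries (horizontal axis), 1 point per gene with at least 10 reads in all 7 libraries. Coloured points are the 144 genes that were higher and the 193 that were lower in every Mertk KO library.

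The receptor and lipid genes that define the groups gave no separation in Mertk or Ptdss1 themselves. Mertk read 10.63, 9.72, 9.24 and 8.95 in Mertk KO and 7.47, 10.20 and 9.003 in Ptdss1 knockdown, so the groups overlapped and the mean of the gene labelled as deleted was not lower (0.75, SE 0.70, adjusted p = 0.813). The difference was 0.04 without Ptdss1 knockdown replicate 1, 1.40 without replicate 2 and 0.41 without Mertk KO replicate 1. Control libraries were at 9.64, 9.26 and 10.97. Reads outside a deleted exon still count toward the gene, so a gene total is not a check of the label unless the removed exons are known. Ptdss1, whose knockdown was in the injected cells, read 8.04, 9.47, 8.14 and 10.12 against 1.85, 9.43 and 9.58. The lowest of these values is 3 reads in Ptdss1 knockdown replicate 1; the difference was 1.99 (SE 1.42) with that library and -0.56 without it. Ptdss2, the second synthase, read between 6.81 and 8.47 in Mertk KO and 10.64, 7.26 and 6.96 in the knockdown group (-0.82, SE 1.69), and the difference was 0.36 without Ptdss1 knockdown replicate 1.

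Axl, the TAM receptor that stands beside Mertk, was the only one of the family and its ligands whose groups did not overlap. Its values were 11.42, 11.30, 10.35 and 11.54 in Mertk KO and 14.20, 12.05 and 11.72 in Ptdss1 knockdown. The 4 Mertk KO libraries also lay below all 3 control libraries, at 12.33, 12.38 and 12.51. The difference of -1.51 (SE 0.53, adjusted p = 0.805) was -0.73 without Ptdss1 knockdown replicate 1, the library with the highest value. Of the bridging ligands, Gas6 ranged from 8.38 to 11.68 in Mertk KO and from 9.08 to 10.78 in the knockdown group (0.12, SE 0.74). Pros1 was between 8.93 and 10.44 in Mertk KO and at 1.45, 9.24 and 9.08 in the knockdown group, where the low value is 2 reads in replicate 1. Its difference was 2.85 (SE 1.62) and 0.28 without that library. Tyro3 was listed at 0 in all 7 libraries.

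Among genes with 10 reads in all 7 libraries, the lists for the remaining steps of uptake had 0 separated members. Over all 6328 genes 2.28% were higher and 3.05% lower without overlap, so 0 in such short lists says little about them. None of the 12 other apoptotic cell receptors and bridges with 10 reads in all 7 libraries had non-overlapping groups, and their median difference was 0.04, or 0.15 without Ptdss1 knockdown replicate 1. The same held for 19 engulfment signalling genes, of which 15 had negative differences (median -0.27, and 0.03 without Ptdss1 knockdown replicate 1). It also held for 10 genes of phosphatidylserine synthesis and exposure, whose median was 0.17, or 0.29 without that library. Dock1, an exchange factor for the GTPase Rac in engulfment, was at 8.55, 7.93, 8.42 and 9.63 in Mertk KO and at 1.85, 7.93 and 7.65 in the knockdown group. Its lowest Mertk KO value lay just above its highest knockdown value, at 7.9337 and 7.93336. With 3 reads in Ptdss1 knockdown replicate 1 it was not among the 19 genes. Its difference of 2.82 (SE 1.38) was 0.84 without that library. Atp8a1, a flippase that moves phosphatidylserine to the inner leaflet, was at 11.21, 10.97, 10.24 and 10.78 against 7.30, 10.41 and 10.46, with overlapping groups.

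The secreted matrix genes Spp1, Fn1 and Ecm1 were higher in every Mertk KO library. Spp1, which encodes osteopontin, read 15.41, 15.58, 17.54 and 14.81 in Mertk KO and 13.77, 13.88 and 14.66 in Ptdss1 knockdown. The lowest Mertk KO library and the highest knockdown library were thus 14.81 and 14.66, close together, and Mertk KO replicate 3 stood above the others. The difference was 1.73 (SE 0.51, adjusted p = 0.805), between 1.16 and 2.08 when any 1 of the 7 libraries was left out. Fn1, which encodes fibronectin, had the narrower groups, with 14.49, 14.69, 15.29 and 15.13 against 13.70, 13.64 and 13.87. Its means were 14.90 ± 0.37 (SD, n = 4) and 13.74 ± 0.12 (SD, n = 3), a difference of 1.17 (SE 0.35, adjusted p = 0.805), and 1.15 without Ptdss1 knockdown replicate 1. Control libraries lay below both groups for each gene, with Spp1 at 12.31 to 12.93 and Fn1 at 12.45 to 12.90. For Spp1 and Fn1 the order of the groups was therefore control, Ptdss1 knockdown, Mertk KO.

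Ecm1, extracellular matrix protein 1, read 11.84, 11.98, 13.63 and 13.62 in Mertk KO and 9.24, 10.96 and 11.38 in the knockdown group. Its Mertk KO libraries formed a lower and a higher pair, both above the knockdown group and above control at 10.93 to 11.09. The difference was 2.24 (SE 0.57, adjusted p = 0.805), and 1.60 without Ptdss1 knockdown replicate 1. Spp1, Fn1 and Ecm1 were the 3 non-overlapping members among the 14 matrix genes with 10 reads in all 7 libraries, all higher in Mertk KO. The share higher without overlap was 2.28% over all 6328 genes. The list as a whole had 8 positive and 6 negative members with a median of 0.06, which was 0.42 without Ptdss1 knockdown replicate 1. Of 12 genes for integrins and Cd44, among them receptors of osteopontin and fibronectin, 9 had negative differences and the median was -0.14. None had non-overlapping groups, beside shares of 2.28% higher and 3.05% lower over all 6328 genes. Without Ptdss1 knockdown replicate 1 the median was 0.19, and with upper-quartile factors 0.08.

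**Figure D3:**
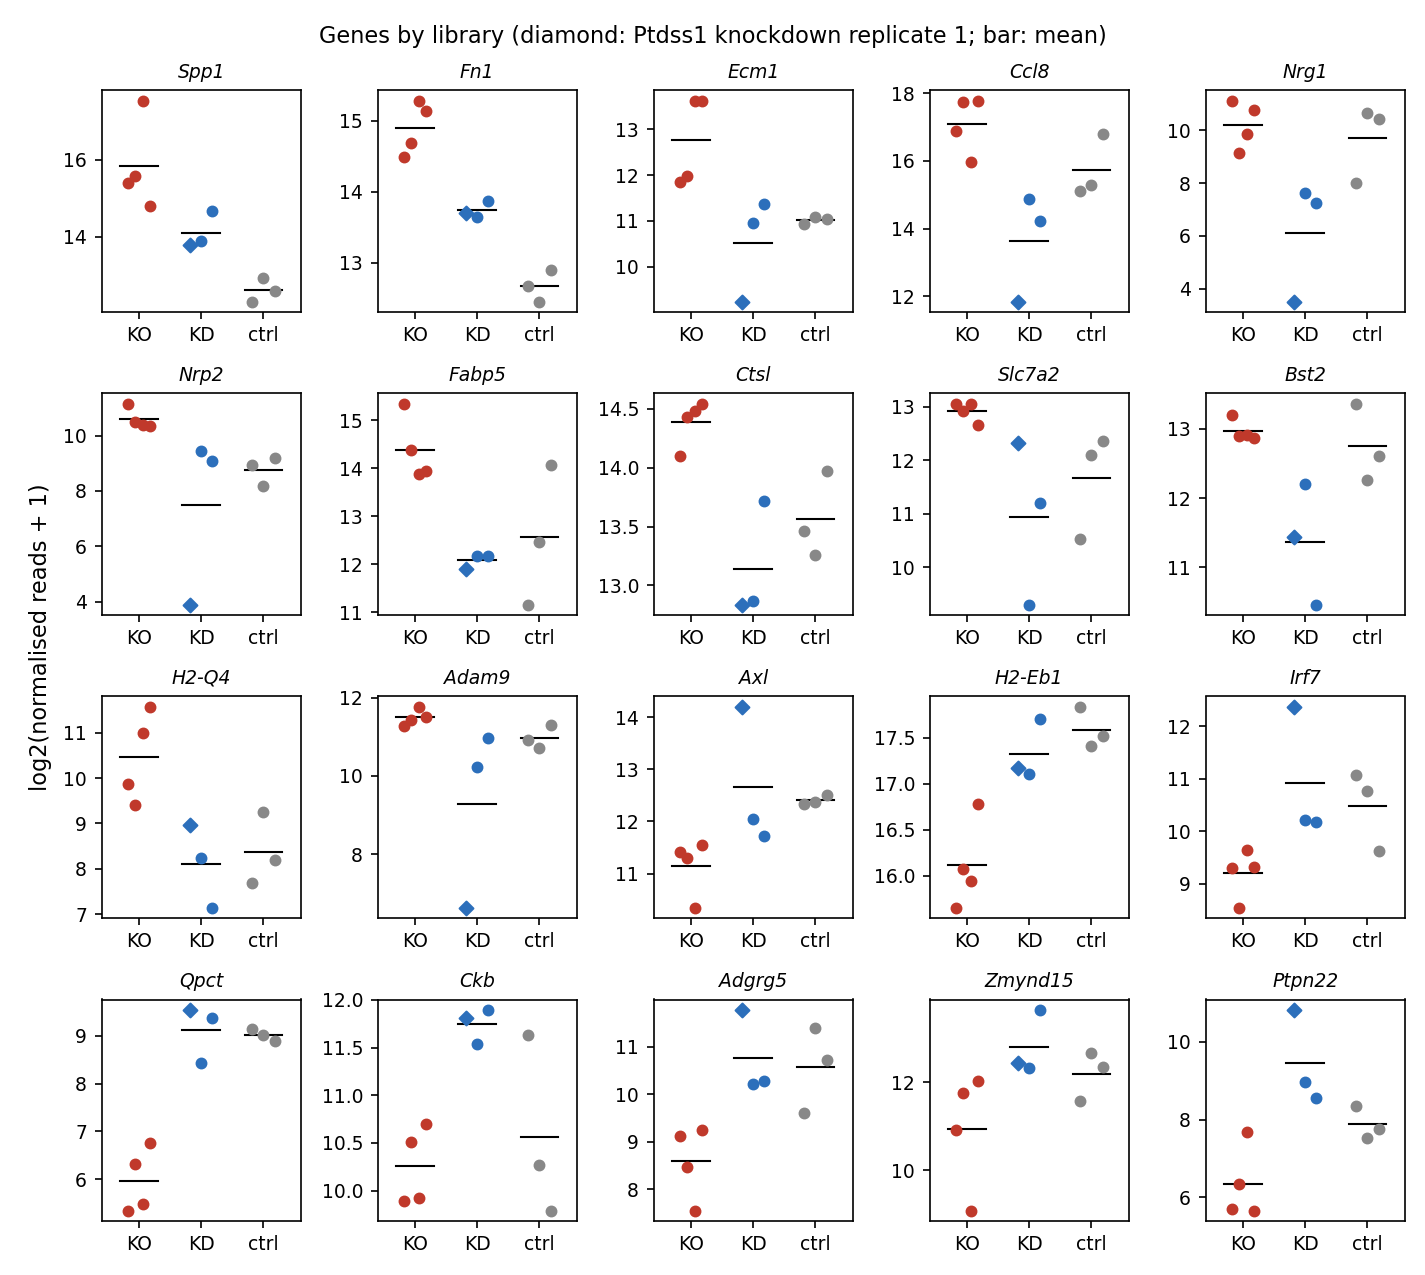
Log2(normalised reads + 1) per library for single genes, with Mertk KO, Ptdss1 knockdown and control side by side; points are libraries, Ptdss1 knockdown replicate 1 is a diamond, and bars are means. Spp1, Fn1, Ccl8 and Fabp5 have every Mertk KO library above every knockdown library, and H2-Eb1 and Qpct have every one below.

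Genes of lipid handling and the lysosome held several of the separated members. Fabp5, a fatty acid binding protein, read 15.34, 14.38, 13.88 and 13.93 in Mertk KO against 11.90, 12.17 and 12.17 in Ptdss1 knockdown, a gap wider than the spread of either group. Its means were 14.39 ± 0.68 (SD, n = 4) and 12.08 ± 0.16 (SD, n = 3), and the difference of 2.31 (SE 0.55, adjusted p = 0.805) stayed between 1.99 and 2.47 with any 1 of the 7 libraries left out. With array weights its adjusted p was 0.0492. Control libraries spanned 11.16, 12.47 and 14.06, so the third control library lay within the Mertk KO range. Ctsl, the lysosomal protease cathepsin L, read 14.10, 14.44, 14.48 and 14.55 against 12.84, 12.87 and 13.72, with means of 14.39 ± 0.20 (SD, n = 4) and 13.14 ± 0.50 (SD, n = 3). The difference was 1.25 (SE 0.37, adjusted p = 0.805). Cd63, a tetraspanin of late endosomes and lysosomes, was also higher in every Mertk KO library, by 0.94 (SE 0.36), and so was Npc2, which carries cholesterol out of the lysosome, by 0.82 (SE 0.37).

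Of the 14 lipid-associated macrophage genes with 10 reads in all 7 libraries, 10 had positive differences, with a median of 0.57 and of 0.38 without Ptdss1 knockdown replicate 1. Spp1, Fabp5, Cd63 and Ctsl were the 4 with non-overlapping groups, all higher, and Spp1 was also counted among the matrix genes. For this and the next 2 lists, the share higher without overlap over all 6328 genes was 2.28%. Of 12 genes of cholesterol efflux and the LXR receptors, 9 were positive with a median of 0.35, and Npc2 and the cholesterol transporter Abca1 (0.68, SE 0.43) were higher in every Mertk KO library. Of 32 lysosomal enzymes and proton pump subunits 19 were negative, with a median of -0.09 that was 0.30 without Ptdss1 knockdown replicate 1 and 0.13 with upper-quartile factors, and Ctsl, Cd63 and Npc2, already counted in the other lists, were their 3 separated members. Among genes with few reads, Scd1, the stearoyl-CoA desaturase, was at 5.24, 6.27, 1.78 and 7.89 in Mertk KO and at 0, 0 and 1.15 in the knockdown group, where the highest value is 2 reads. Ctsk, cathepsin K, was at 6.13, 4.48, 3.62 and 10.44 against 0, 0 and 3.43. Neither of these genes had 10 reads in all 7 libraries.

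Ccl8, a chemokine that attracts monocytes and other leukocytes, had the smallest p of the comparison. Its position is chromosome 11, 82115185 to 82116799, plus strand (GRCm38). Values were 16.89, 17.73, 15.96 and 17.79 in Mertk KO and 11.84, 14.87 and 14.23 in Ptdss1 knockdown, with control at 15.11, 15.29 and 16.81. All 3 control libraries lay above the knockdown group, and the third lay inside the Mertk KO range. The difference was 3.44 (SE 0.67, unadjusted p = 0.000164, limma adjusted p = 0.805), and 2.54 without Ptdss1 knockdown replicate 1, the lowest library. Its adjusted p was 0.071 with limma-voom and 0.000268 with array weights. Ccl8 was the single chemokine of 15 with non-overlapping groups. Over all 6328 genes 2.28% were higher and 3.05% lower without overlap, so 1 member says little about the list. The list median was 0.08, and -0.35 without Ptdss1 knockdown replicate 1. Ccl2, the main attractant of monocytes, was at 11.69, 12.86, 11.71 and 12.12 in Mertk KO and at 12.53, 12.70 and 13.46 in the knockdown group (-0.80, SE 0.52, and -0.52 without Ptdss1 knockdown replicate 3), with overlap. Ccl5 ranged from 11.71 to 15.69 in Mertk KO, where replicate 1 was highest, and from 11.35 to 12.29 in the knockdown group (1.25, SE 0.79, and 0.42 without Mertk KO replicate 1).

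Growth and angiogenic factors had 4 of 10 members higher in every Mertk KO library and none lower. Over all 6328 genes 2.28% were higher in this way and 3.05% lower. Nrg1, a ligand of the ErbB receptors, read 11.13, 9.12, 9.87 and 10.76 against 3.51, 7.63 and 7.24. The knockdown libraries were also below the 3 control libraries, at 7.99, 10.67 and 10.43. The first control library, at 7.99, lay close to the highest knockdown library, at 7.63, and below every Mertk KO library. The other control libraries lay inside the Mertk KO range. The difference was 4.10 (SE 1.00, adjusted p = 0.805), and 2.79 without Ptdss1 knockdown replicate 1. Nrp2, a co-receptor for semaphorins and VEGF, read 11.16, 10.49, 10.38 and 10.34 against 3.89, 9.44 and 9.10, and its difference of 3.12 (SE 1.00) was 1.33 without that library. Igf1, insulin-like growth factor 1, behaved alike in size, with 11.08 to 12.06 in Mertk KO and 4.50, 10.58 and 10.59 in the knockdown group (3.03, SE 1.17, and 1.00 without replicate 1). Flt1, a VEGF receptor, had 4 close Mertk KO values of 10.42, 10.52, 10.66 and 10.43 against 9.45, 7.55 and 9.33, and its difference of 1.73 (SE 0.74) was 2.07 without replicate 1 and 1.12 without replicate 2. Over the 10 members the median was 0.67, and 0.73 without Ptdss1 knockdown replicate 1.

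Arginine transport and alternative activation gave a mixed picture. Slc7a2, a transporter of arginine and other cationic amino acids, was tightly grouped at 13.06, 12.93, 13.06 and 12.66 in Mertk KO and spread over 12.32, 9.30 and 11.20 in Ptdss1 knockdown. The difference was 1.98 (SE 0.59, adjusted p = 0.805, and 0.0264 with array weights), and 1.16 without Ptdss1 knockdown replicate 2. Arg1, the arginine-degrading enzyme arginase 1, was at 16.33, 15.84, 16.57 and 15.51 against 12.999, 13.98 and 15.80, so Ptdss1 knockdown replicate 3 lay inside the Mertk KO range (1.80, SE 0.58, and 1.17 without Ptdss1 knockdown replicate 1). Mrc1, the mannose receptor, was higher in every Mertk KO library, at 12.89 to 14.27 against 12.11 to 12.87 (1.11, SE 0.41). So was Ccl24, an eotaxin, at 13.05 to 14.97 against 11.16 to 12.43 (2.22, SE 0.96). The opposite sign came from Mgl2, a galactose-binding lectin, with 8.65, 9.56, 12.22 and 9.26 in Mertk KO and 12.05, 11.93 and 11.81 in the knockdown group. Only Mertk KO replicate 3 stood at the level of the knockdown libraries, and the difference was -2.01 (SE 0.65, adjusted p = 0.805, and 0.00161 with array weights). The array weight of that replicate was low, at 0.468. Chil3, a chitinase-like secreted protein, ranged widely, from 7.27 to 14.47 in Mertk KO and 3.14, 0 and 9.51 in the knockdown group. Over the 10 genes of the list with 10 reads in all 7 libraries, 6 were positive and the median was 0.14, or 0.78 without Ptdss1 knockdown replicate 1.

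MHC class II genes, which present peptides to helper T cells, had mixed signs, and H2-Eb1 was lower in all 4 Mertk KO libraries. H2-Eb1, the beta chain of the I-E molecule, read 15.65, 16.08, 15.94 and 16.78 in Mertk KO and 17.17, 17.11 and 17.70 in Ptdss1 knockdown. Control libraries, at 17.84, 17.41 and 17.52, were at the level of the knockdown group, so the Mertk KO group stood below all 6 others. The difference was -1.22 (SE 0.33, adjusted p = 0.805, and 0.00259 with array weights), and -1.29 without Ptdss1 knockdown replicate 1. H2-DMb2, a chain of the peptide-loading molecule H2-DM, had the opposite sign, with 10.98, 11.07, 12.06 and 12.52 against 10.35, 10.08 and 10.58 (1.32, SE 0.51). H2-Ab1 overlapped, at 17.66 to 18.51 against 18.32 to 18.77 (-0.55, SE 0.29). Of 9 class II genes with 10 reads in all 7 libraries 6 were negative, with a median of -0.32. Of 13 class I and loading genes 9 were negative, with a median of -0.37 that was 0.13 without Ptdss1 knockdown replicate 1. The single separated member of that list was Psmb8, lower in every Mertk KO library (-0.37, SE 0.35, and -0.21 without that replicate). Over all 6328 genes 3.05% were lower in this way. H2-Q4, a non-classical class I gene (chromosome 17, 35379617 to 35385290, plus strand), is not on that list. It was higher in every Mertk KO library at 9.87, 9.40, 10.998 and 11.57 against 8.96, 8.23 and 7.15 (2.35, SE 0.73, adjusted p = 0.00405 with array weights). MHC genes resemble each other in sequence and can exchange reads, which makes the level of each uncertain.

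A copied gene gave a wide gap between the groups and was chosen after its values were seen. Gm10260 is a gene model (chromosome 13, 97760072 to 97760632, minus strand) that is nearly identical to the ribosomal protein gene Rps18 (chromosome 17, 33951999 to 33956001, minus strand). Their annotated transcripts (GENCODE M21) matched at 99.1% of 545 aligned bases, with 5 mismatches, 4 of them in the coding part. A coding stretch of 75 bases is shown because it holds 2 of these mismatches, which are in capitals; a read that covers neither these nor another mismatch could belong to either gene. The Gm10260 stretch is chr13:97760199-97760273 on the minus strand of GRCm38, and both are written 5′ to 3′ in the direction of the transcript.
Gm10260: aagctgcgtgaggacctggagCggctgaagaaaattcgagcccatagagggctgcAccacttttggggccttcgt
Rps18: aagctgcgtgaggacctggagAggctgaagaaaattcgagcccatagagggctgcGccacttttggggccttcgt

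Gm10260 read 10.96, 10.96, 10.81 and 10.29 in Mertk KO and 4.76, 6.44 and 4.98 in Ptdss1 knockdown, with control at 4.88, 2.05 and 5.60. The difference was 5.36 (SE 1.29, adjusted p = 0.805, and 1.47e-05 with array weights), and 5.04 without Ptdss1 knockdown replicate 1. Of the reads assigned to either gene of the pair, Gm10260 held 22.5%, 23.3%, 29.0% and 26.5% in Mertk KO. That share was 0.843%, 0.550% and 0.349% in the knockdown libraries and at most 0.314% in control. Rps18 itself overlapped between the groups, at 11.76 to 12.74 against 11.58 to 13.92 (-0.55, SE 0.57), and its difference was -1.19 without Ptdss1 knockdown replicate 1 and -0.02 without replicate 2.

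A second such pair, also chosen after its values were seen, differed in the same direction. Hmga1b (chromosome 11, 120762794 to 120764419, plus strand) matched Hmga1, a chromatin protein gene (chromosome 17, 27556497 to 27563674, plus strand), at 99.8% of 1602 aligned bases with 3 mismatches, 0 of them in the coding part. Hmga1b held 46.0%, 38.2%, 45.2% and 44.7% of the reads of its pair in Mertk KO, and 1.52%, 2.90% and 2.39% in the knockdown group. Control libraries were between 1.25% and 2.41%. On the log2 scale Hmga1b was at 8.93, 8.13, 9.80 and 9.16 against 6.06, 5.44 and 4.64 (3.63, SE 1.35), and Hmga1 at 9.16, 8.83, 10.08 and 9.47 against 12.06, 10.47 and 9.93 (-1.44, SE 0.56, and -0.82 without Ptdss1 knockdown replicate 1). The groups of Hmga1b did not overlap, those of Hmga1 did.

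**Figure D4:**
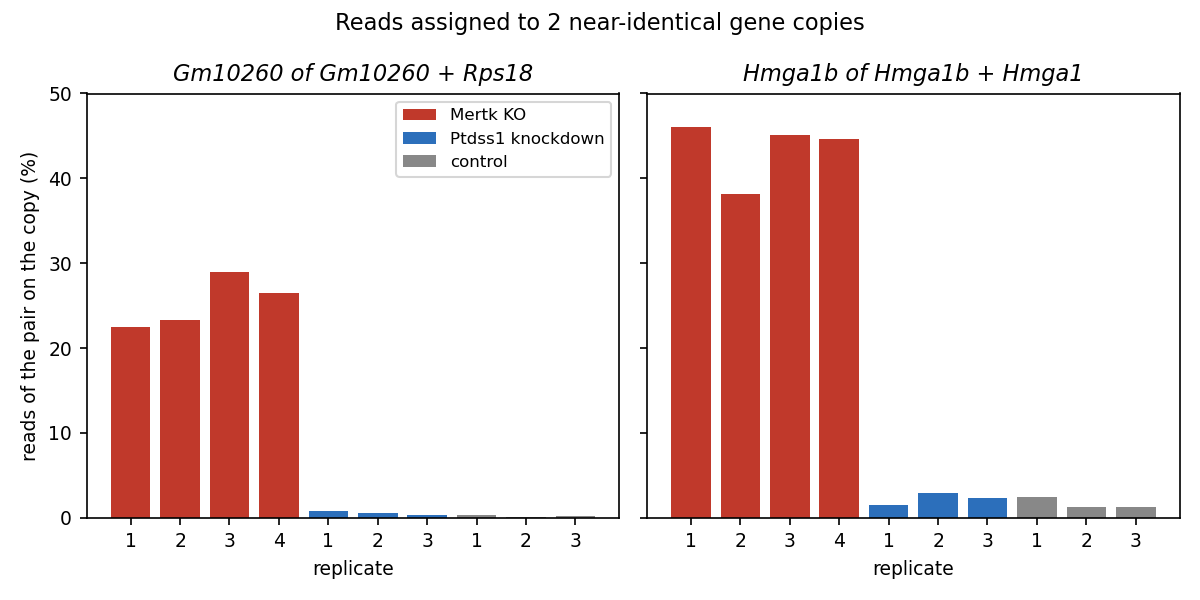
Share of the reads of each pair of near-identical genes that were assigned to the copy (percent, vertical axis), per library, for Gm10260 with Rps18 and Hmga1b with Hmga1. Mertk KO libraries lie between 22.5% and 29.0% for Gm10260 and between 38.2% and 46.0% for Hmga1b, and all other libraries are below 3%.

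Both parent genes, Rps18 and Hmga1, lie on chromosome 17 within the same stretch as the MHC genes named above. From Rps2 to H2-Q4, 24718116 to 35385290, there were 128 genes with 10 reads in all 7 libraries. Of these, 10 (7.81%) had non-overlapping groups, beside 315 of 5983 (5.26%) on the other chromosomes. Mertk KO stood apart from all 6 other libraries, control included, for 4 of the 128 (3.13%), which were Gpsm3, H2-DMb2, H2-Eb1 and H2-Q4, beside 54 of 5983 (0.903%). On the rest of chromosome 17 the 2 counts were 12 (5.53%) and 4 (1.84%) of 217 genes. The stretch was chosen after these values were seen, and its end was set by H2-Q4, which is itself among the genes counted. The counts are therefore no test of the stretch. Rps2, a ribosomal protein gene at one end of it, read 12.21, 12.46, 12.31 and 12.40 in Mertk KO and 12.34, 13.49 and 13.56 in the knockdown group (-0.79, SE 0.41, adjusted p = 0.0395 with array weights), and the difference was -1.18 without Ptdss1 knockdown replicate 1. Its control values were 13.49, 12.98 and 14.11. The labels give the strain as C57BL/6 for all mice, and whether the groups carry different alleles in this stretch was not tested.

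Most type I interferon response genes had lower means in Mertk KO, with Bst2 as the exception. Of 15 type I interferon response genes with 10 reads in all 7 libraries, 14 had negative differences, with a median of -0.77 that was -0.36 without Ptdss1 knockdown replicate 1. Irf7, a transcription factor that amplifies the interferon response, read 9.29, 8.55, 9.64 and 9.31 in Mertk KO and 12.37, 10.20 and 10.17 in Ptdss1 knockdown (-1.72, SE 0.60, adjusted p = 0.805, and -0.99 without replicate 1). Isg15, a ubiquitin-like modifier, read 8.40, 8.16, 7.71 and 8.18 against 10.87, 9.37 and 8.92 (-1.61, SE 0.76, and -1.04 without replicate 1). Replicate 1 was the highest of the knockdown libraries for both genes, and the groups did not overlap. Ifit2 and Xaf1 were the other 2 members that were lower in every Mertk KO library, with differences of -1.49 (SE 0.91) and -0.77 (SE 0.54). Over all 6328 genes 3.05% were lower without overlap. For Ifit2 the margin was small, from 8.97 in the highest Mertk KO library to 8.99 in the lowest knockdown library, and its difference was -0.24 without replicate 1.

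Bst2, tetherin, a membrane protein that holds budding viruses at the cell surface, was the single positive member of that list. It read 13.20, 12.90, 12.91 and 12.86 in Mertk KO and 11.44, 12.21 and 10.46 in the knockdown group, and 12.27 to 13.37 in control. Here the knockdown group was the one below the other 2, and the difference was 1.60 (SE 0.45, adjusted p = 0.805, and 0.00259 with array weights). Cmpk2, a mitochondrial nucleotide kinase, was at 4.43, 5.98, 0.86 and 0 against 10.86, 6.98 and 6.93, and did not have 10 reads in all 7 libraries. The 14 GTPases induced by interferon gamma had 10 positive members and a median of 0.22, or 0.48 without Ptdss1 knockdown replicate 1, and Gbp7 was higher in every Mertk KO library at 11.67 to 12.46 against 10.07 to 11.60 (1.01, SE 0.47, and 0.52 without that library).

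Further genes were lower in every Mertk KO library without belonging to a single list. Qpct, glutaminyl cyclase, which modifies the ends of chemokines and other secreted peptides, read 5.34, 6.31, 5.48 and 6.75 against 9.55, 8.43 and 9.38. Control libraries, at 9.15, 9.02 and 8.89, lay within the range of the knockdown group, and the difference was -3.15 (SE 1.01, adjusted p = 0.805, and 0.00259 with array weights). Qpct lies on chromosome 17, 79051906 to 79090378, plus strand, outside the stretch described above. Ckb, the brain-type creatine kinase, read 9.90, 10.51, 9.92 and 10.70 against 11.81, 11.54 and 11.90 (-1.49, SE 0.49, adjusted p = 0.0341 with array weights), but its control values of 11.63, 10.27 and 9.79 reached into both groups. Ptpn22, a phosphatase of immune receptor signalling, read 5.71, 6.34, 7.69 and 5.66 against 10.82, 8.97 and 8.55 (-3.10, SE 1.10, adjusted p = 0.0234 with array weights). The adhesion receptor gene Adgrg5 (-2.15, SE 0.62) and Zmynd15 (-1.85, SE 0.60) also had array-weight adjusted p of 0.0358 and 0.0286. The difference of Zmynd15 was -1.23 without Mertk KO replicate 3.

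Several differences were smaller without Ptdss1 knockdown replicate 1. Sema4d, a semaphorin, read 13.63 in that library and 10.75 and 10.54 in the other 2 knockdown libraries, against 8.29 to 10.48 in Mertk KO, and its difference of -1.94 (SE 0.68) was -0.94 without it. Ocstamp, a membrane protein of osteoclast fusion, went from -3.23 (SE 1.12) to -2.49, and Abhd11 from -2.44 (SE 0.84) to -1.97. In the other direction Adam9, a membrane metalloprotease, went from 2.22 (SE 0.72) to 0.90.

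Cell-cycle, stress and housekeeping lists showed how far that library can move a summary. Of 10 S phase genes with 10 reads in all 7 libraries, 7 were negative, with a median of -0.20 that was -0.55 without Ptdss1 knockdown replicate 1 and 0.02 with upper-quartile factors, and Rfc3, a subunit of the clamp loader, and Slbp, which binds histone mRNA, were lower in every Mertk KO library. Slbp was at 9.92, 10.56, 10.04 and 10.29 against 11.98, 11.11 and 11.17 (-1.22, SE 0.47). Only 4 of 41 mitosis genes had 10 reads in all 7 libraries. Of 14 stress response genes 12 were negative with a median of -0.48, and the median was -0.01 without Ptdss1 knockdown replicate 1. The 79 cytosolic ribosomal protein genes had 62 positive members and a median of 0.24, and -0.33 without that library. The 70 nuclear subunits of oxidative phosphorylation had 49 positive members and a median of 0.28, and -0.20 without it. For these last 2 lists the sign of the median turned with 1 library. Their non-overlapping members were all lower in Mertk KO, 1 ribosomal protein gene (Rpl10) and 3 subunit genes (Ndufa9, Ndufs8 and Cyc1). Over all 6328 genes 3.05% were lower in this way, so nothing about the 2 lists is read from these few. Their unadjusted limma-trend p were 0.400, 0.442, 0.334 and 0.0793 in that order. Hspa1a, a heat shock chaperone, was the single non-overlapping member of 23 immediate early and heat shock genes, near the share of 3.05% over all 6328 genes. It read 9.23, 8.32, 9.93 and 8.46 against 11.73, 10.24 and 10.11 (-1.71, SE 0.76).

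The Fc receptor and toll-like receptor lists had 0 and 1 separated members. Over all 6328 genes 2.28% were higher and 3.05% lower without overlap, so these counts say little about the lists. All 6 genes of the Fc receptor list had 10 reads in all 7 libraries. Of these, 5 were positive, 0 had non-overlapping groups, and the median of 0.65 was 0.15 without Ptdss1 knockdown replicate 1. Of 13 toll-like receptors and adaptors, Irak2, a kinase of that signalling, was the 1 separated member, at 9.99, 9.40, 10.34 and 10.76 against 8.72, 9.28 and 8.68 (1.23, SE 0.57). Ccr2, the receptor for Ccl2 on monocytes, was at 9.34, 10.24, 12.98 and 8.62 in Mertk KO and 14.61, 13.01 and 11.51 in the knockdown group (-2.75, SE 1.03), with overlap through Mertk KO replicate 3. Of 7 monocyte genes with 10 reads in all 7 libraries 5 were negative, with a median of -0.64, or -0.39 without Ptdss1 knockdown replicate 1. No member of any list passed the test in either direction.

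**Figure D5:**
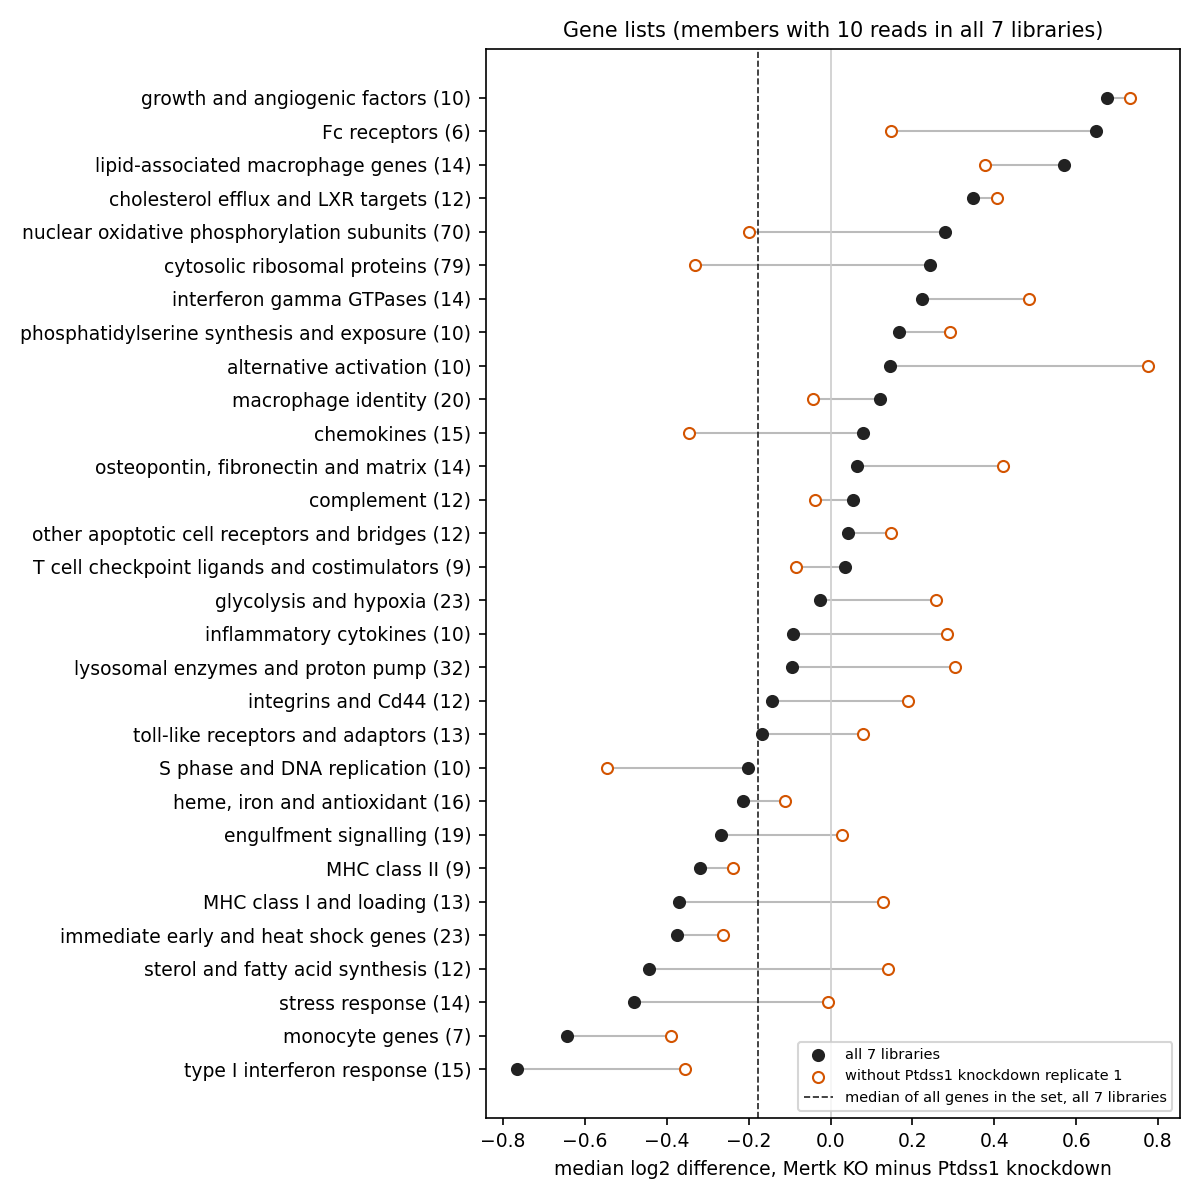
Median log2 difference, Mertk KO minus Ptdss1 knockdown, of each gene list over its members with at least 10 reads in all 7 libraries, with all 7 libraries (filled) and without Ptdss1 knockdown replicate 1 (open); the dashed line is the median of all 6328 genes. Several lists, ribosomal protein and oxidative phosphorylation genes among them, change sign between the paired points, while growth and angiogenic factors stay at 0.67 and 0.73.

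Few genes were present in one group and without reads in the other. Trim46, Bex6 and Mybph had 0 reads in all 4 Mertk KO libraries and at least 10 reads in all 3 knockdown libraries, and 0 genes had the reverse pattern. Trim46 read 10.75, 4.87 and 3.91 in the knockdown libraries and Bex6 10.18, 4.67 and 4.32, high in replicate 1 in both cases. In control Trim46 was at 0 in all 3 libraries, and Bex6 at 0, 0 and 0.79. Mybph, a myosin-binding protein, read 6.03, 3.503 and 4.60 in the knockdown libraries and 5.44, 6.75 and 4.69 in control, so for this gene the Mertk KO libraries were the ones without reads.

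Markers of other cells were low and did not follow the groups evenly. In bulk libraries fewer cells of a type and less RNA per cell cannot be told apart. Summed over the list, NK cell markers came to 31.6 to 57.3 CPM (reads scaled to a common library total) in Mertk KO, 63.1 to 188 in Ptdss1 knockdown and 99.5 to 234 in control. Klrk1, the activating receptor NKG2D and a member of that list, read 6.40, 8.41, 7.82 and 9.08 in Mertk KO and 10.98, 8.70 and 9.85 in the knockdown group (-1.92, SE 0.77), with overlap. It made up nearly all of the NK sum in Mertk KO replicate 4 (673 reads) and in Ptdss1 knockdown replicates 1 and 3 (2333 and 1506 reads). Nkg7 had 0, 12 and 72 reads in those libraries. In Mertk KO replicate 1, Klrk1 had 57 reads beside 218 of Gzmb, so the sum reflects different genes by library. T cell markers came to 0.985 to 16.1 CPM in Mertk KO and 1.96 to 64.5 in the knockdown group, where replicate 2 was highest. That replicate was also highest for B cell markers, at 54.9 CPM beside at most 9.03 in the other 6 libraries. Fibroblast markers came to 86.2 and 150 CPM in Mertk KO replicates 2 and 4 and to at most 21.3 in the other 5 libraries. Ptdss1 knockdown replicate 1 had the highest sums of neutrophil markers (277 CPM, beside 40.2 to 83.6), of mast cell and basophil markers (141 CPM, beside at most 7.66) and of muscle markers (51.7 CPM, beside at most 5.07). Each of these sums came almost wholly from a single gene, Csf3r with 6413 reads, Kit with 3301 and Acta2 with 1212. S100a8 and Mmp9 of the neutrophil list had 0 reads in that library, so these sums do not show the cell types. Dendritic cell markers, at 333 to 955 CPM against 344 to 670, endothelial markers, at 46.5 to 89.4 against 38.5 to 95.3, and epithelial and tumour cell markers, at 211 to 316 against 155 to 253, overlapped between the groups. Cdh1, the epithelial cadherin, read 9.81, 9.76, 10.55 and 9.93 in Mertk KO and 2.42, 9.21 and 9.45 in the knockdown group (2.99, SE 1.25, and 0.68 without replicate 1). Adipocyte and erythroid or platelet markers had 0 members among the genes tested. Of 8 mast cell and basophil markers 6 were at 0 in all 7 libraries, among them Fcer1a and Tpsb2; so were Ly6g, S100a9 and Camp of 11 neutrophil markers, Blk and Fcmr of 10 B cell markers, Lum of 13 fibroblast markers, Emcn and Cldn5 of 11 endothelial markers, Cldn4 and Elf3 of 16 epithelial and tumour cell markers, and Des of 9 muscle markers. The part of any of these cells in the differences above was not tested.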

How the data were processed

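RNA from sorted tumour-associated macrophages was copied with a SMART-Seq v4 kit, amplified by 16 PCR cycles and sequenced as 75-base single reads in 1 run, per the labels' protocols. The libraries carry no molecular identifiers and the kits named do not mark strand. The submitters' processing notes name STAR, RSEM and mm10 (versions: not given in the sources used here). In 1 table per library the authors deposited values whose unit no header states and whose numbers carry a decimal comma, so the automatic check of units could not read them. The deposited values were read as log2(normalised reads + 1), because undoing the log2 put 100% of them on whole multiples of 1 step per library, within 0.01 of a read. Those multiples are the recovered counts, and the deposited size factors were kept.

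All 21938 gene IDs were in GENCODE M21 (GRCm38), all protein-coding; 14 symbols turned into dates were restored and 27 symbols stood on 2 IDs. Genes with at least 10 recovered reads in 3 of the 10 libraries (11564) entered 1 limma-trend fit (limma 3.58.1, R 4.3.3) of all 10 libraries, with robust moderation, group means, no covariate, two-sided tests and Benjamini-Hochberg adjustment at 0.05. Fold differences are on the log2(value + 1) scale with a pseudocount of 1, which understates low genes. The code was tested on simulated data. Array weights were estimated by an iteration that limma reported to have stopped before reaching its tolerance.

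The comparison, the gene lists and the rules were chosen with earlier results of these data known. Genes named are Mertk, Axl, Tyro3, Gas6, Pros1, Ptdss1, Ptdss2, Spp1, Fn1 and Lyz2; the 12 per direction of smallest p among genes with 10 reads in all 7 libraries and non-overlapping groups, automatic names skipped; up to 3 per list of smallest p, or all of a list of up to 6; and up to 5 per direction with 10 reads in every library of 1 group and 0 in the other. A selection of these is printed. Abca1, Igf1, Flt1, Mrc1, Ccl24, Isg15, Ifit2, Xaf1, Gpsm3, Rpl10, Ndufa9, Ndufs8, the markers at 0, Gm10260, Rps18, Hmga1b and Hmga1 were named after their values were seen. Near-identical transcripts were compared by alignment. Alternatives were other size factors, filters, pseudocount 8, a threshold of 0.1, limma-voom, array weights, no robust moderation, only the 7 libraries, libraries thinned to the lowest depth, and each library left out in turn.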

Additional observations from a re-analysis of the deposited data

Results flagged for a closer look

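In the group of 4 Mertk KO libraries, 3 of 75 genes taken had 1 library far from the other 3. Chance gives about 1 in 20 such groups. Trim46, Bex6 and Mybph are among the 75 but had 0 reads in all 4 libraries, so they could not be flagged. Bst2 was highest in Mertk KO replicate 1, at 13.20, where the other 3 lay between 12.86 and 12.91. Ifit2 was lowest in Mertk KO replicate 3, at 8.24, with the others between 8.88 and 8.97. Tacc3, a spindle protein, was lowest in the same replicate, at 2.55, with the others between 6.38 and 7.11.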

How the results depend on the processing

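The count of 0 genes past the threshold held under median-of-ratios or upper-quartile factors, a pseudocount of 8, no filter, 50 reads in 3 libraries, 10 reads in all 7 libraries, limma-voom, only the 7 libraries, thinning (which also recomputed the factors), no robust moderation and leaving out any 1 library. Array weights gave 35 genes, and 31 among genes with 10 reads in all 7 libraries, 26 of them shared. Leaving out Ptdss1 knockdown replicate 1 and control replicate 2 together gave 1, Gm10260 (limma adjusted p = 0.00943). That pair and the last use of array weights were chosen after seeing the data. With 1 library left out, the genes higher in every Mertk KO library numbered between 194 and 487 and those lower between 261 and 490; fewer libraries make a group easier to separate. Without Ptdss1 knockdown replicate 1 they were 487 and 316. Of 72 genes selected for this check, 69 kept their sign under all 23 settings. Much of that count was fixed in advance and is no measure of robustness. Genes chosen for non-overlapping groups cannot change sign when a library is left out. Filters, moderation and the control libraries do not enter an unweighted difference of 2 group means. The selection leaves out other genes that the naming rule takes, and some of those changed sign without Ptdss1 knockdown replicate 1: Itga6 went from 1.90 to -0.41, Cfb from -0.82 to 0.50, Fcgr1 from 0.75 to -0.07 and Csf3r from -0.80 to 0.22. Gas6 reversed to -0.11 with array weights, and ranged from -0.38 to 0.72 with 1 library left out: it was -0.38 and -0.26 without Mertk KO replicates 3 and 4 and -0.36 without Ptdss1 knockdown replicate 3. Ptdss1 reversed to -0.51 with array weights and to -0.56 without Ptdss1 knockdown replicate 1, with or without control replicate 2, and ranged from -0.56 to 3.30. Ptdss2 reversed to 0.15 and 0.21 with array weights over all genes tested and over those in all 7 libraries, and to 0.36 without Ptdss1 knockdown replicate 1, with or without control replicate 2, and ranged from -1.48 to 0.36 with 1 library left out. The cause was not tested. Of 660 list medians 22 moved by 1 SD or more, in 11 of 33 lists. No paired analysis was possible because the labels give no pairing and no replicate numbers. The replicate numbers used here only follow the order of the library titles. Reads after amplification are not independent molecules, and differences of genes absent from Ptdss1 knockdown replicate 1 were not detectable apart from that library's low detection.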
